A study of Mus musculus with 10 samples.

Results

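Mouse embryonic fibroblasts carrying a catalytic mutant of the histone methyltransferase G9a were compared with the same kind of cells carrying wild-type G9a, gene by gene, on Affymetrix 3' expression arrays. The comparison took the 2 arrays titled with H1093K and the 2 titled with WT, 4 of the 10 arrays of the study. By the design text, G9a had been deleted from the cells, which then received an empty vector (the group delta) or a FLAG-tagged G9a. The tagged forms were wild type in the group WT, FLAG-G9a with the K165A substitution in the group K165A, and the catalytic mutant in the group H1093K, with 2 arrays per group. A further 2 arrays are titled only as deleted, and the labels do not say what vector those cells carried, if any; they entered the fit but no comparison below. H1093K and WT cells thus shared the deletion, the FLAG tag and the return of a G9a coding sequence, and by design differed in the substitution. Any other difference between the lines cannot be told apart from the substitution. The labels do not say how the vectors were delivered, or whether each line was 1 clone or a pool. The design text speaks of independent analyses, but separate cultures for the arrays of a group are not stated. The p-values therefore cover no more than array-to-array spread, part or all of which may be technical.

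G9a, the product of Ehmt2, works as a partner of the related enzyme GLP and places methyl groups on lysine 9 of histone H3, mostly in euchromatin, a mark known for silencing genes. It also methylates itself and other proteins, and it binds other regulators, so the protein can act in ways that do not need its enzyme activity. A catalytic mutant is the usual means of telling the part of its activity that needs methyl transfer from the part that does not.

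All values are signals on a linear scale, and all differences are on the log2(signal + 16) scale, H1093K minus WT, tested with limma against a Benjamini-Hochberg adjusted p of 0.05. Each group had n = 2 arrays, errors are SE of the log2 difference, and the number of arrays limits the precision. Median signals ran from 181 to 199 over the 10 arrays, and arrays of 1 group correlated at 0.983 to 0.987 on the log2 scale. The labelled cell type was borne out by Col1a1, Col1a2 and Vim, for collagen I and vimentin, whose signals lay between 7011 and 15818 on the 4 arrays, while the fibroblast receptor Pdgfra read only 41.2 to 94.8.

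The only probe set for Ehmt2 itself that was bright enough to be tested read 676 and 620 on the WT arrays and 461 and 494 on the H1093K arrays. The H1093K arrays lay below both WT arrays and near the delta arrays, which read 473 and 415. The difference was -0.43 ± 0.09, 1.35-fold lower, with a limma adjusted p of 0.0185, and it kept its call in only 1 of the 4 fits that leave out an array of either group. The sources do not place these probes inside or outside the deletion or the FLAG-tagged coding sequence, so the signal may come from either form. On the arrays titled deleted it read 1678 and 1750, the highest of the series, which goes against that title. Another Ehmt2 probe set was too dim to be tested, and on it the H1093K and WT arrays overlapped. It read 40.9 and 106 in WT, 116 and 55.7 in H1093K and 7.13 and 36.5 in delta. Ehmt1, which encodes GLP, had no probe set of its own and is not analysed here.

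H1093K and WT cells differed in 1090 of 13576 probe sets tested (8.03%), 550 higher (4.05%) and 540 lower (3.98%) in H1093K. With each gene taken by its brightest tested probe set, 687 of 7742 genes were called, 353 higher (4.56% of genes tested) and 334 lower (4.31%). Most differences were modest. The median size among called genes was 0.62 on the log2 scale, or 1.53-fold, and 115 probe sets were higher and 129 lower by more than 2-fold. All 1090 called probe sets had H1093K arrays that did not overlap the WT arrays, as did 6749 of all 13576. Leaving out 1 of the 4 arrays lowered the count of calls to between 548 and 644, and 430 probe sets were called whichever of the 4 was left out. Messenger RNA came from whole cultures, in which fewer cells of a type and less RNA per cell cannot be told apart.

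**Figure D1:**
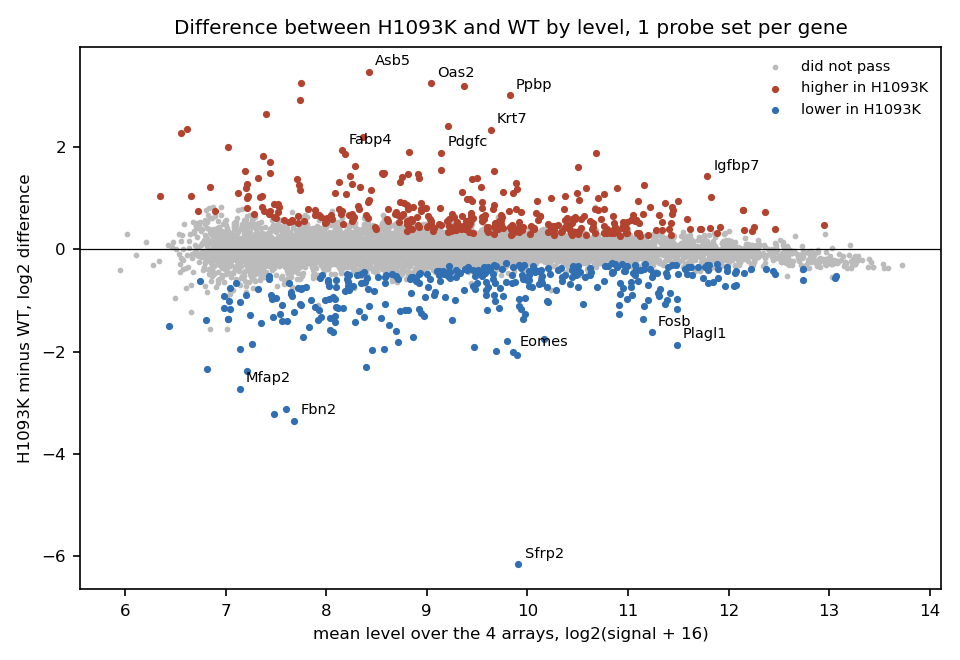
Each point is 1 of 7742 genes, placed by its mean level over the 4 arrays (x axis, log2(signal + 16)) and its log2 difference, H1093K minus WT (y axis); coloured points passed the limma threshold. Sfrp2 lies alone at -6.16, while most coloured points lie within 1 log2 unit of 0.

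The 15 genes that rose most lay 3.75-fold to 11.1-fold above WT. The largest rise was that of Asb5, which encodes an ankyrin repeat protein with a SOCS box. Its signal was 69.1 and 108 on the WT arrays and 1154 and 1106 on the H1093K arrays, 11.1-fold higher (3.48 ± 0.24, limma adjusted p = 2.67e-05). Oas2, an interferon-induced enzyme that makes the second messenger which activates RNase L, read 181 and 133 in WT and 1623 and 1592 in H1093K. That was a 9.48-fold rise (3.25 ± 0.16, adjusted p = 4.29e-06 by limma), and its relative Oas3 went from 79.7 and 47.1 to 497 and 657, 7.56-fold higher. The choice of genes required ranges without overlap, and Oas3 varied more than Oas2 between arrays of a group. Actg2, the gamma-actin of smooth muscle, read 59.5 and 48.7 in WT and 631 and 663 in H1093K, again 9.48-fold higher (3.25 ± 0.18). Aldh1a1, which oxidises retinal to retinoic acid, rose from 198 and 208 to 2159 and 1836, 9.16-fold (3.20 ± 0.28).

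The smallest adjusted p of the comparison, 5.14e-07 by limma, belonged to Ppbp, a CXC chemokine precursor best known from platelets. It read 326 and 282 in WT and 2656 and 2473 in H1093K, 8.08-fold higher (3.01 ± 0.10). The other large rises lay between 3.75-fold and 6.31-fold. Gpx3, a secreted glutathione peroxidase, was 6.31-fold higher, the monooxygenase-like Moxd1 5.34-fold, the desmosomal cadherin Dsg2 5.11-fold and the simple-epithelial keratin Krt7 5.07-fold. Nnmt, which methylates nicotinamide and so draws on S-adenosylmethionine, the methyl donor of G9a too, rose 4.85-fold, from 30.0 and 23.8 to 247 and 148. Tll1, a metalloprotease of the BMP1 family, was 4.60-fold higher, the protease inhibitor Serpinb6b 4.02-fold, the fatty acid carrier Fabp4 3.85-fold and the neutrophil-attracting chemokine Cxcl5 3.75-fold.

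The 15 genes that fell most lay 3.73-fold to 71.7-fold below WT. Sfrp2, a secreted Frizzled-related protein that modulates Wnt signalling, read 8822 and 7499 on the WT arrays and 104 and 91.8 on the H1093K arrays. It was 71.7-fold lower (-6.16 ± 0.46, 95% interval -7.19 to -5.14, limma adjusted p = 3.47e-05), the largest difference of the comparison. Next came Fbn2, fibrillin-2, which forms microfibrils in embryonic matrix. Its signal was 632 and 647 in WT against 49.7 and 46.6 in H1093K, 10.2-fold lower (-3.35 ± 0.15, adjusted p = 3.60e-06 by limma). Mfap2, a microfibril-associated glycoprotein, fell 6.61-fold, from 308 and 388 to 75.4 and 16.8, with arrays far apart within H1093K. The binding protein Igfbp2 read 546 and 514 in WT and 51.7 and 34.0 in H1093K, 9.38-fold lower. Angpt1, the ligand of the receptor Tie2, read 591 and 521 in WT and 47.4 and 52.5 in H1093K, 8.66-fold lower. For all of these genes every H1093K array lay below both WT arrays, as the choice of genes required.

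Further down the list, 2 transcription factors of mesoderm and limb, Eomes and Osr2, were lower by 4.03-fold and 3.98-fold. Eomes read 1776 and 1919 in WT and 429 and 463 in H1093K, and Osr2 read 1605 and 1648 against 368 and 428. Bmp4, a ligand of the BMP family, went from 623 and 739 to 153 and 172, 3.89-fold lower (-1.96 ± 0.14). Ddit4l, an inhibitor of mTOR signalling, was 5.17-fold lower, the protocadherin Pcdhb17 5.04-fold, the imprinted zinc finger gene Peg3 4.92-fold and Nrep 4.18-fold. Col6a3, a collagen VI chain, was 3.87-fold lower, as was the lipid phosphatase-related Plppr4, and Shisa2 was 3.73-fold lower. All 30 genes named so far as the 15 largest rises and 15 largest falls kept their limma call whichever of the 4 arrays was left out. Oas, protocadherin beta and MHC genes have close relatives whose transcripts a probe set may also read, so the split of signal within those families is uncertain.

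**Figure D2:**
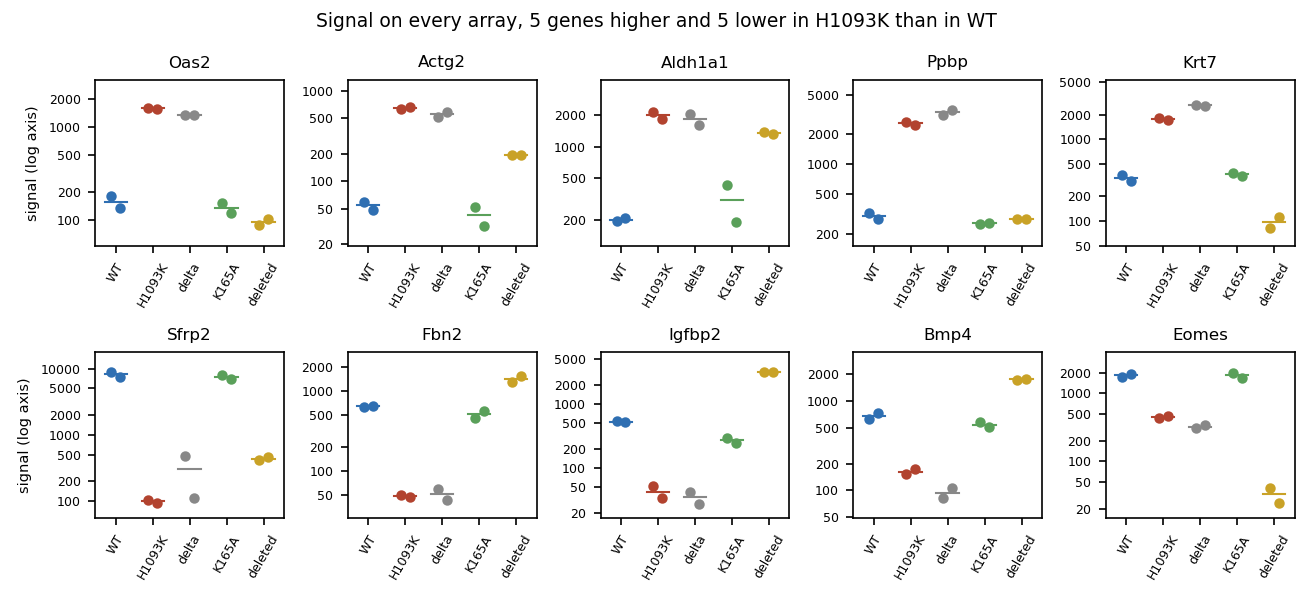
Signal on each of the 10 arrays (log axis) for 5 genes higher and 5 lower in H1093K than in WT; each dot is 1 array and each line the mean of the 2. For all 10 genes the H1093K dots lie apart from the WT dots, as the choice of genes required, and on the side of the delta dots.

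Counts of called members are given by gene list, to be read against all 7742 genes tested. Of those, 4.56% were higher and 4.31% lower, with a median difference of 0.011. The lists were chosen with earlier results of these data known, which can raise their shares, so the counts are descriptions. Of 7 tested genes for Wnt ligands and secreted Wnt antagonists, 3 were lower (42.9%), 0 higher and 4 did not pass, with a median of -0.31. Besides Sfrp2, these were Rspo2, an R-spondin that amplifies Wnt signalling, from 2928 and 3009 to 1305 and 1163 (2.39-fold lower), and the ligand Wnt16, 2.10-fold lower. The Wnt16 call was lost in all 4 fits that leave out 1 of the compared arrays. Wnt5a, a ligand of noncanonical signalling, differed by 0.49 ± 0.19 and did not pass.

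In the BMP and TGF-beta list, 7 of 30 tested genes were lower (23.3%), 0 were higher and 23 did not pass (median -0.15). The 7 were the ligand Bmp4, the inhibitory Smad6, the receptor Tgfbr2 and all of Id1, Id2, Id3 and Id4, inhibitors of helix-loop-helix factors that BMP signalling is known to induce. Id1 read 3373 and 3215 in WT and 1784 and 1543 in H1093K (-0.98 ± 0.09, limma adjusted p = 9.63e-05). Id2 went from 1359 and 1450 to 662 and 620 (-1.11 ± 0.08), and Smad6 from 1007 and 1058 to 540 and 562 (-0.89 ± 0.09). No H1093K array reached a WT array for these genes, as for every called probe set. Id4 was 1.90-fold lower, Id3 differed by -0.69 and Tgfbr2 by -0.46.

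In the insulin-like growth factor axis, 7 of 14 tested genes were lower, 2 higher (14.3%) and 5 did not pass, with a median of -0.57. Alongside Igfbp2, the binding protein Igfbp4 was 2.27-fold lower and the adaptor Irs1, which relays insulin and IGF signals, fell from 1510 and 1495 to 914 and 869 (1.67-fold). The others that were lower were the adaptor Irs2, the ligand Igf1, its receptor Igf1r and the growth-restraining adaptor Grb10. Igfbp7, a secreted relative of the binding proteins, went the other way, from 2056 and 2209 in WT to 5524 and 6096 in H1093K (2.71-fold higher, 1.44 ± 0.12). Igf2r, which clears IGF2, was higher by 0.29. Without 1 of the 4 compared arrays, the Igf1 and Igf2r calls were kept in 0 of the 4 fits and the Igf1r call in 1, while the other 6 calls of the list were kept in all 4.

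Extracellular matrix genes went both ways. Of 51 tested, 14 were lower (27.5%), 9 higher (17.6%) and 28 did not pass (median -0.08, and 0.02 with quantile normalization). All 3 collagen VI chains measured, Col6a1, Col6a2 and Col6a3, were lower, by -0.71, -0.96 and -1.95, and the protease Adamts1 fell from 3616 and 3653 to 1387 and 1415 (2.58-fold). Fibulin-1, from Fbln1, was 1.85-fold lower. Timp3, an inhibitor of matrix metalloproteases, differed by -1.18 (SE 0.09, limma adjusted p = 4.27e-05), and Nid2 differed by -0.67. Vcan, Ltbp1, Timp2, Fbln5 and Col3a1 were lower by smaller amounts, and Fbn2 and Mfap2 complete the 14. Thbs2, thrombospondin-2, a regulator of matrix assembly and of vessel growth, rose from 2575 and 2492 to 5070 and 5213 (2.02-fold, 1.02 ± 0.07). The other genes that were higher were Ltbp2, Col12a1, Fbln2, Timp1, Lamb1, Plod2, Tnc and Loxl1, by 0.43 to 1.22. Of the 23 called, 15 kept the call in all 4 fits without 1 array.

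Bone and cartilage genes had 4 of 9 tested members lower, 0 higher and 5 that did not pass (median -0.28). These were Bmp4, the proteoglycan Omd (2.24-fold), the cartilage collagen Col11a1 (1.82-fold) and osteoglycin, Ogn (1.43-fold), and the Ogn call was lost in 3 of the 4 fits without 1 of the arrays. Of 29 mesoderm and developmental transcription factors, 9 were lower (31.0%), 1 was higher and 19 did not pass (median -0.29), and 7 of the 10 calls were kept in all 4 such fits. With Eomes and Osr2, the T-box factor Tbx18 was 2.51-fold lower and Mef2c, a regulator of muscle and heart genes, 2.63-fold. Tbx15, Osr1, Prrx2, Zeb1 and Hey1 were also lower, while Foxd1 was higher by 0.45. Of 16 Hox genes and cofactors, 0 passed in either direction (median 0.04), although Hoxa5 differed by 0.42 ± 0.14 and Hoxd13 by -0.26 ± 0.11.

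Immediate early genes, which cells switch on within minutes of growth factors or stress, were more often lower than higher. Of 37 tested, 13 were lower (35.1%), 3 higher (8.11%) and 21 did not pass, with a median of -0.32. Fosb, a subunit of AP-1, read 3994 and 4429 in WT and 1289 and 1432 in H1093K, 3.07-fold lower (-1.62 ± 0.12, limma adjusted p = 3.05e-05). The mRNA-destabilising protein Zfp36 went from 3988 and 3987 to 1990 and 2072, and the Krüppel-like factor Klf2 from 1316 and 1360 to 649 and 697. Atf3, Klf4, Klf6, Jun, Junb, Trib1, Dusp6, Nr4a1, Nr4a2 and Sgk1 made up the rest of those that were lower. The 3 that were higher were Gadd45a, a stress-induced gene of growth arrest, Rhob and Ccn2, and Gadd45a read 232 and 264 in WT against 675 and 702 in H1093K (2.67-fold). Of these 16 calls, 8 were kept in all 4 fits without 1 array, those of Sgk1 and Ccn2 in 1, and those of Klf4, Klf6, Dusp6, Nr4a1, Nr4a2 and Rhob in 2.

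Interferon-stimulated genes, which are known to be switched on through the ISRE element in their promoters, had 20 of 42 tested members higher (47.6%), 0 lower and 22 that did not pass, with a median of 0.29. After Oas2 and Oas3, the GTPase gene Ifi47 rose from 276 and 289 to 789 and 747 (2.63-fold), and Rsad2, the antiviral enzyme viperin, from 557 and 676 to 1425 and 1263 (2.16-fold). Oasl2 rose from 1426 and 1479 to 2305 and 2295. Zbp1, a sensor of Z-form nucleic acid, was 2.89-fold higher, but this call was kept in only 1 of the 4 fits without 1 array. The remaining 14 were Ifih1, Gbp2, Gbp3, Trim30a, Parp14, Parp9, Oas1a, Igtp, Irgm2, Isg20, Iigp1, Cmpk2, Lgals3bp and Usp18, and of all 20 called members 9 kept the call in every 1 of those 4 fits. Of the 22 that did not pass, Ifit1, Ifit2, Ifit3, Ifitm2, Ifitm3, Irf1, Mx2, Bst2, Irgm1 and Ccl5 lay lower, by -0.51 to -0.01. The rest lay level or higher, by up to 0.32 (Dhx58). Promoter sequences came from RefSeq on GRCm38.p6. The letters GAAANNGAA, the core of the ISRE, were searched on both strands in the 250 bases before the start of each gene. They were found in 9 of 14 members called higher whose promoter was in the table (64.3%), in 9 of 19 other tested members (47.4%) and in 460 of 6333 tested genes (7.26%). The list is made of genes known for this element, so a share above that of all tested genes was built in. The shares of called and other members rest on few genes and were not compared by a test. Oas2 was not among the called members with a match. A match is a description of the letters and not a mapped site. The matches of Oas3 and Rsad2, described above, and of Trim30a, chosen after its difference of 0.95 had been seen, are printed to show where the core sits, read 5′ to 3′ along the gene with the core in capitals. Each printed stretch holds the core with the bases on either side. That of Oas3 spans chr5:120777701-120777759 on the minus strand of the chromosome, with the core 75 bases before the start:
Oas3: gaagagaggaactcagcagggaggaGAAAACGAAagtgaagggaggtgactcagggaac
That of Rsad2 spans chr12:26456538-26456596 on the minus strand, with the core 119 bases before the start and on the opposite strand of the gene:
Rsad2: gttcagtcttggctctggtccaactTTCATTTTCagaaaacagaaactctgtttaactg
That of Trim30a spans chr7:104465195-104465253 on the minus strand, with the core 35 bases before the start, also on the opposite strand of the gene:
Trim30a: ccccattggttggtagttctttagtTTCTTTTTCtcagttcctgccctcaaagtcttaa

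Genes of MHC class I and antigen processing were also higher: 6 of 15 tested, 0 lower and 9 that did not pass, with a median of 0.42. Psmb8 and Psmb9, subunits of the immunoproteasome, rose 2.32-fold and 2.24-fold, Psmb8 from 192 and 200 to 424 and 534. The classical class I genes H2-K1 and H2-D1 were both 1.70-fold higher, from 3594 and 3296 to 5553 and 6218 for H2-K1. The peptide transporter genes Tap1 and Tap2 were higher by 0.62 and 0.57. Of these 6 calls, 4 were kept in all 4 fits without 1 array.

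Cholesterol synthesis genes held the largest share of members called higher among the lists with over 10 tested: 12 of 20 were higher, 0 lower and 8 did not pass, with a median of 0.53. The sterol demethylation enzymes Msmo1 and Cyp51 rose 2.01-fold and 1.56-fold, Msmo1 from 1161 and 1165 to 2460 and 2248 (1.01 ± 0.07, limma adjusted p = 2.99e-05). Farnesyl diphosphate synthase, Fdps, went from 2221 and 1927 to 3696 and 3651 (1.77-fold), and the desaturase Sc5d from 569 and 610 to 947 and 944 (1.59-fold). For these 4 genes both H1093K arrays lay above both WT arrays, as for every gene called higher. Idi1, Nsdhl, Lss, Sqle, Stard4, Hmgcs1, Fdft1 and Hsd17b7 were higher by 0.38 to 0.69. Of the 8 that did not pass, Pmvk lay lower, from 351 and 426 to 244 and 202 (-0.76 ± 0.23), and the others lay higher. Of the 12 calls, 8 were kept in all 4 fits without 1 array. The letters TCACNCCAC, a core of the sterol regulatory element that SREBP factors bind, were searched in the same way. They were found in 79 of 6333 tested genes (1.25%). Among other tested members of the list they were found in 0 of 8 promoters, and among the called members in 1 of 8, too few to compare. That match lies in Hmgcs1, the synthase early in the pathway, 137 bases before the start. The stretch around it spans chr13:119690189-119690247 on the plus strand, with the core in capitals:
Hmgcs1: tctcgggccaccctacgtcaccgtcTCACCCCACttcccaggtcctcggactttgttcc

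Chemokines and inflammatory genes had 7 of 27 tested members higher (25.9%), 2 lower (7.41%) and 18 that did not pass (median 0.07). After Ppbp and Cxcl5, the chemokine Cxcl15 rose from 925 and 1062 to 2295 and 2317 (2.31-fold), and Il1rn, Cx3cl1, Csf1 and Ptgs2 were higher by 0.40 to 0.75. Cxcl12, which draws cells through CXCR4, was lower, from 2563 and 2556 to 1518 and 1504 (1.69-fold), as was Tlr2. Of 10 retinoid genes, 3 were higher, 0 lower and 7 did not pass (median 0.13), namely Aldh1a1, the retinol dehydrogenase Rdh10 (1.70-fold) and Dhrs3 (1.46-fold). Smooth muscle and contractile genes had 3 of 20 higher, 0 lower and 17 that did not pass (median 0.09): Actg2, the integrin Itga7 (1.73-fold) and calponin Cnn1 (1.53-fold). Tagln differed by 0.37 ± 0.11 and did not pass.

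Imprinted genes split evenly, with 4 of 21 tested higher, 4 lower and 13 that did not pass (median -0.05). Plagl1, a zinc finger factor expressed from 1 parental allele, read 5845 and 5095 in WT and 1396 and 1585 in H1093K, 3.64-fold lower (-1.86 ± 0.12). Cdkn1c, a cyclin-dependent kinase inhibitor, went from 989 and 937 to 319 and 411 (2.59-fold lower), and Peg3 and Grb10 were the others. Gatm, Ampd3, Ndn and Igf2r were higher.

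Genes of the unfolded protein and amino acid stress responses had 8 of 50 tested members higher, 2 lower (about the share over all genes) and 40 that did not pass (median 0.14), with asparagine synthetase, Asns, up from 517 and 540 to 997 and 1033 (1.89-fold) and the chaperone Dnajb11 1.43-fold higher. Atf3 and the phosphatase subunit Ppp1r15a were lower. Of 41 p53 targets and cell cycle inhibitors, 5 were higher (12.2%), 2 lower (4.88%, near that of all genes) and 34 did not pass (median 0.01), with the kinase Plk2 1.93-fold higher. The hypoxia and glycolysis list had 3 of 26 higher (11.5%), 2 lower (7.69%) and 21 that did not pass (median 0.11), and held Vegfa, the angiogenic factor, 2.29-fold higher, beside Ndrg1, 1.73-fold lower. Among 71 cell cycle genes, 2 were lower (2.82%), 0 higher and 69 did not pass (median -0.01, and 0.02 with quantile normalization), the 2 being Cdk4 and Stmn1, both 1.30-fold lower and both lost in 3 of the 4 fits without 1 array. Adipocyte and lipid genes had 3 of 16 higher (18.8%), 1 lower (6.25%) and 12 that did not pass (median 0.00). Fabp4, Plin2 and Fabp5 were higher and the transcription factor Ebf1 2.41-fold lower. The Fabp5 and Ebf1 calls were not kept in every fit without 1 of the compared arrays. In the H3K9 methylation machinery, 3 of 23 tested were lower, 0 higher and 20 did not pass (median -0.11): Ehmt2 and the demethylase genes Kdm3a and Kdm3b, the latter pair by -0.48 and -0.45, each kept in 1 of the 4 fits without 1 array.

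**Figure D3:**
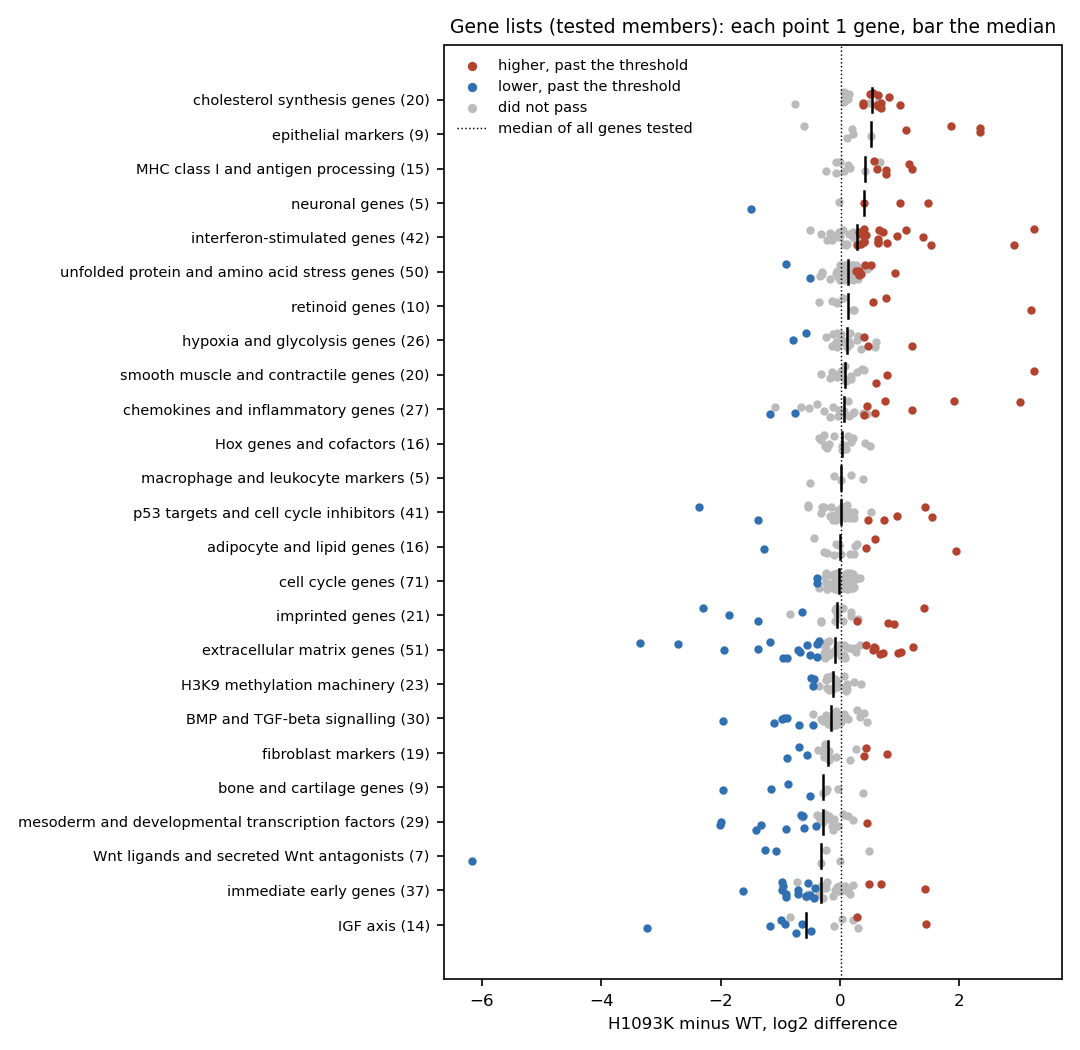
Each point is 1 tested gene of a list, placed by its log2 difference, H1093K minus WT; red and blue points passed the limma threshold, black bars are list medians and the dotted line is the median of all genes (0.011). Cholesterol synthesis genes (median 0.53) sit at the top and the insulin-like growth factor axis (-0.57) at the bottom.

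Of the lists that mark other cell types, those of epithelium and neurons held several called genes. Epithelial markers had 4 of 9 tested members higher, 0 lower and 5 that did not pass (median 0.52). These were Krt7, Dsg2, the desmosomal plaque protein Pkp2 (3.63-fold) and the keratin Krt18 (2.15-fold). Summed over the 28 measured markers of that list, the signal was 2548 and 2770 in WT and 5151 and 5475 in H1093K. That sum includes the 4 called genes, of which Krt7 alone read 367 and 310 in WT and 1804 and 1742 in H1093K. Of the 5 that did not pass, Krt8 lay lower, at 138 and 129 in WT against 116 and 57.2 (-0.60). Krt19, Jup, Perp and Grhl2 lay higher. The defining marker Cdh1 was too dim to be tested and lay lower in H1093K, at 175 and 168 in WT against 121 and 77.4, while Epcam lay between 4.03 and 8.19 on the 4 arrays. Of 5 tested neuronal genes, 3 were higher, 1 was lower and 1 did not pass (median 0.40), with Stmn2 2.78-fold higher and the adhesion molecule L1cam 2.80-fold lower, and the sum over 27 measured genes was 2215 to 2279 in WT and 2461 to 2936 in H1093K. The L1cam call was not kept in every fit without 1 of the compared arrays. The part of other cell types in these differences was not tested.

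In the remaining marker lists few genes were bright enough. Of 5 tested macrophage and leukocyte markers and 4 endothelial markers, 0 passed (medians 0.02 and 0.19). Their defining genes were dim, with Ptprc at 18.5 to 31.4, Itgam at 2.50 to 14.5, Pecam1 at 7.04 to 29.2 and Tie1 at 1.09 to 5.22 on the 4 arrays. The summed signal of 23 leukocyte markers was 1440 to 1521 in WT and 1371 to 1596 in H1093K, and that of 17 endothelial markers 852 to 881 and 793 to 1008. Of 28 measured germline and pluripotency genes 1 was tested, the meiotic cohesin gene Stag3, which fell from 390 and 311 to 161 and 179 (1.96-fold). Their sum was 840 to 1009 in WT and 784 to 906 in H1093K, and 4 lay under 16 on all arrays. None of 25 measured skeletal muscle genes was bright enough to be tested, and their sum was 555 to 780 in WT and 890 to 948 in H1093K. Fibroblast markers themselves had 3 of 19 tested higher, 3 lower and 13 that did not pass (median -0.20, and 0.00 with quantile normalization). Thy1 was 1.72-fold higher and Pdgfrb 1.60-fold lower. The Pdgfrb call was not kept in every fit without 1 of the compared arrays.

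The study holds a comparison that shares no array with H1093K against WT, namely delta, with no G9a, against K165A, a form that the labels do not call catalytically dead. That comparison had 1529 of 13576 probe sets called (11.3%), and by gene 580 of 7742 were higher (7.49%) and 399 lower (5.15%) in delta. Of the 550 probe sets higher in H1093K than in WT, 526 (95.6%) were also higher in delta than in K165A, where 49.0% of all tested probe sets had that sign, and 367 (66.7%) were called. Of the 540 lower in H1093K, 508 (94.1%) had the same sign, against 51.0% of all tested probe sets, and 334 (61.9%) were called. The 701 probe sets called in both in the same direction made up 64.3% of the calls of the first comparison and 45.8% of those of the other. Over all 13576 probe sets the log2 differences correlated at 0.73, a description across probe sets, which are not independent. All 30 of the largest rises and falls were called in the same direction in delta minus K165A.

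The leading genes gave these values side by side. Sfrp2 differed by -6.16 in H1093K minus WT and by -4.88 in delta minus K165A, with 484 and 112 on the delta arrays and 7859 and 7053 on the K165A arrays. Oas2 differed by 3.25 and 3.19, Actg2 by 3.25 and 3.31, Krt7 by 2.34 and 2.76 and Bmp4 by -1.96 and -2.34. Called members of the lists in delta minus K165A are to be read against 7.49% higher and 5.15% lower over all genes tested. For cholesterol synthesis 10 of 20 tested were higher and 0 lower, and for epithelial markers 6 of 9 and 0. For MHC class I 7 of 15 were higher and 0 lower, and for Wnt regulators 0 were higher and 3 of 7 lower. Of 42 interferon-stimulated genes 10 were higher there and 4 lower, and of 37 immediate early genes 7 and 8. Their list medians were 0.09 and -0.06. Whether the lists differ between the comparisons was not tested.

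The difference between the comparisons was tested for each probe set, as H1093K minus WT less delta minus K165A, and 26 of 13576 passed (0.192%), 15 higher and 11 lower. None of the 30 largest rises and falls passed it (limma adjusted p = 0.168 to 0.989), which does not show that the differences were equal. Among the 26 were Id1 and Id2. On the delta arrays Id1 read 2917 and 2960 and on the K165A arrays 2350 and 2165, so that delta was higher, and the difference of differences was -1.36 (limma adjusted p = 0.0120). For Id2, delta minus K165A was -0.23, and the difference of differences was -0.89 (adjusted p = 0.0213 by limma). Of the other members of that family, Id4 gave -1.07 and did not pass (adjusted p = 0.0737 by limma).

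**Figure D4:**
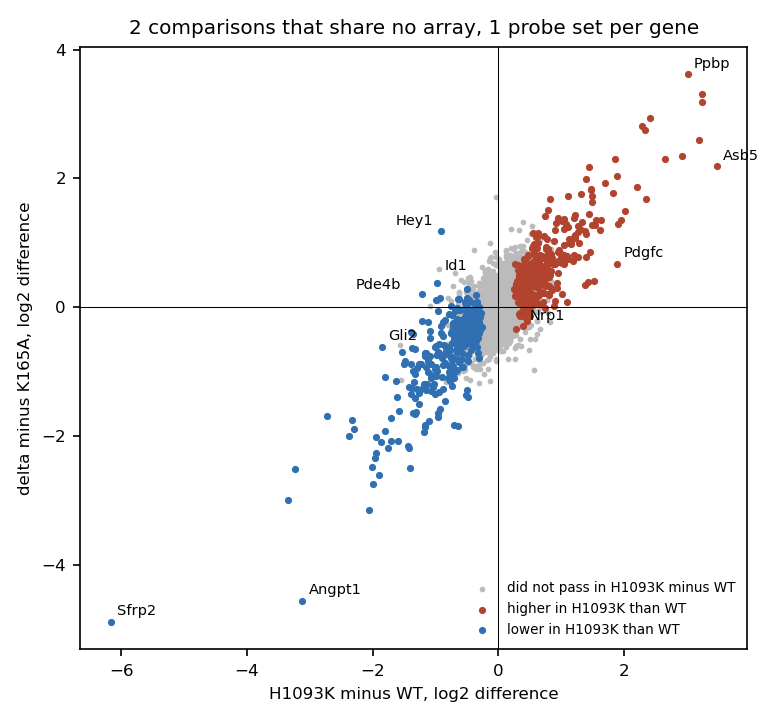
Each point is 1 of 7742 genes, placed by its log2 difference in H1093K minus WT (x axis) and in delta minus K165A (y axis), which share no array; coloured points passed in H1093K minus WT. Most coloured points lie in the lower left and upper right, and Hey1, at -0.91 and 1.18, lies in the upper left.

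Between H1093K and delta, 111 of 13576 probe sets were called (0.818%). For some genes the H1093K arrays lay outside the arrays of WT, delta and K165A alike. Of the 353 genes called higher than in WT, 142 (40.2%) had both H1093K arrays above all 6 arrays of WT, delta and K165A, as did 5.92% of all genes tested. Of the 334 called lower, 130 (38.9%) lay below all 6, against 5.79% of all genes. Called genes already had both H1093K arrays beyond both WT arrays, so a larger share than over all genes was built in. The genes were chosen by that separation, so the values that follow are descriptions, and calls come from the fit over all probe sets. Comparisons with WT and with delta share the H1093K arrays.

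The widest gaps above belonged to Asb5, Zbp1, Rgs5, Kcnab1, Pdgfc, Thbs2, Gadd45a and Plekha4. Pdgfc, a ligand of the PDGF receptor alpha, read 1112 and 1035 in H1093K, 268 and 286 in WT, 656 and 535 in delta and 370 and 358 in K165A. Its arrays ordered the groups with no overlap, H1093K above delta above K165A above WT, and H1093K minus WT was 1.89 (3.72-fold) and H1093K minus delta 0.84. Thbs2 was 3323 and 3362 in delta and 2972 and 2846 in K165A, so that H1093K exceeded delta by 0.62. Gadd45a read 444 and 386 in delta and 288 and 339 in K165A, and H1093K lay 0.71 above delta. The potassium channel subunit Kcnab1 was 2.59-fold above WT, at 337 and 304 against 127 and 103, and 0.77 above delta on the log2 scale. The G protein regulator Rgs5 read 334 and 507 in H1093K and 137 to 206 on the other 6 arrays. Calls against WT for Rgs5 and Plekha4 were kept in only 2 of the 4 fits without 1 array.

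The widest gaps below belonged to Gli2, Sulf2, Rcan2, C1qtnf12, Pde4b, Id4, Ctsf and Fgf7. Gli2, a transcription factor of Hedgehog signalling, read 68.3 and 61.1 in H1093K, 248 and 304 in WT, 184 and 154 in delta and 278 and 253 in K165A. It was 3.60-fold below WT (-1.85 ± 0.15) and 1.19 below delta on the log2 scale (H1093K minus delta -1.19). Pde4b, a phosphodiesterase that breaks down cyclic AMP, read 290 and 241 in H1093K and 461 to 677 on the other 6 arrays, and the delta arrays overlapped those of WT. Sulf2, an extracellular sulfatase that edits heparan sulfate, was 122 and 147 in H1093K against 351 and 400 in WT and 260 and 306 in delta. Rcan2, a regulator of calcineurin, was 187 and 205 in H1093K against 348 and 349 in delta. C1qtnf12, a secreted C1q-related protein, read 395 and 370 in H1093K and 636 to 705 on the other 6 arrays. The growth factor Fgf7 was 83.2 and 87.9 in H1093K against 176 and 135 in WT, and its call was kept in only 1 of the 4 fits without 1 array.

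Of these 16 genes, 3 passed the test of H1093K minus WT less delta minus K165A, against 0.192% of all probe sets tested. The 3 were Pdgfc (1.22, limma adjusted p = 0.0213), Thbs2 (0.82, adjusted p = 0.0168) and Pde4b (-1.42, adjusted p = 0.0213). The 16 were chosen by separation on the same arrays, which favours passing, so that count is only a description. The 8 genes above all had the same sign in delta minus K165A, where 2 were called. Of the 8 below, 5 had the same sign there and 2 were called. Over all genes tested, 7.49% were called higher and 5.15% lower in delta minus K165A.

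**Figure D5:**
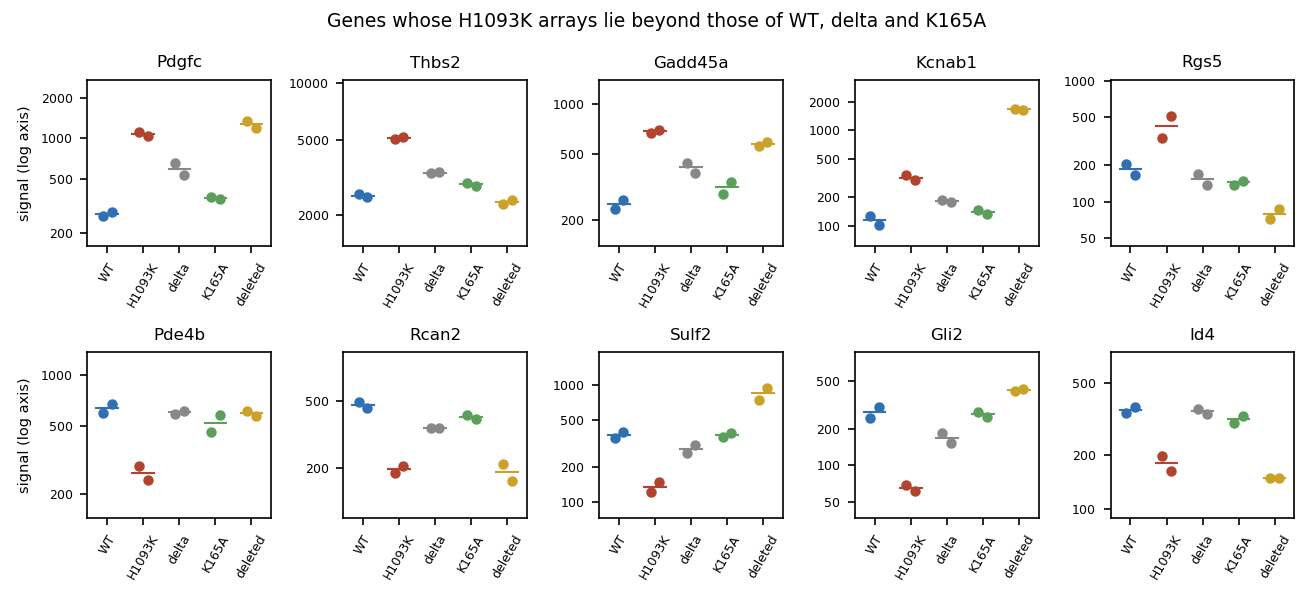
Signal on each of the 10 arrays (log axis) for 10 of the 16 genes whose H1093K arrays lie beyond all WT, delta and K165A arrays; each dot is 1 array and each line the mean of the 2. The arrays titled deleted were not part of the choice and lie above H1093K for Pdgfc, Kcnab1, Sulf2, Gli2 and Pde4b.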

How the data were processed

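Expression was measured on 10 Affymetrix arrays of mouse embryonic fibroblasts, 5 groups of 2, assigned by the sample titles. The authors deposited linear signal intensities from GCOS 1.4, per the submitters' processing notes; the background and scaling options used there are not stated. The trimmed mean signal, without 2% at each end, was 500.1 on every array, so no further scaling was applied. Of 22690 probe sets, 64 controls were left out; the platform annotation names 20380 of the others by 1 gene, 691 by several and 1555 by none.

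Values were taken as log2(signal + 16). A filter kept the 13576 probe sets whose mean over the 10 arrays reached the 40th percentile. limma 3.58.1 in R 4.3.3 fitted 1 mean per group over all 10 arrays (lmFit, then eBayes with its trend option), with 5 residual degrees of freedom and 4.73 added by the prior, and p-values were adjusted by Benjamini-Hochberg over all 13576. The script was tested on simulated data. Folds understate dim genes, and none is given where a group mean lay under 16.

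Named genes are the 15 largest rises and 15 largest falls past the threshold without overlap of arrays, up to 8 in each direction whose H1093K arrays lie beyond the 6 arrays of WT, delta and K165A, up to 4 members of smallest p per gene list, Ehmt2 and Ehmt1; where the text names further list members, it names all that were called or says how they were chosen. A gene with several tested probe sets (3109 of 7742) is taken by the brightest, and 0 genes had probe sets called in both directions. The members and the 28 lists were chosen with earlier results of these data known. Alternatives changed the pseudocount, the filter, the scaling, the prior, the arrays in the fit and the replicate block.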

Additional observations from a re-analysis of the deposited data

Results flagged for a closer look

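A test of the difference between H1093K minus WT and delta minus K165A, chosen after seeing the data, singled out 3 genes that were called in opposite directions in these comparisons by their brightest probe set, and a 4th, Cotl1, by another of its probe sets. Hey1, a transcriptional repressor downstream of Notch and BMP signals, read 273 and 247 in WT, 129 and 134 in H1093K, 293 and 259 in delta and 117 and 108 in K165A. H1093K was thus low beside WT, while delta was high beside K165A, and the difference of differences was -2.09 (limma adjusted p = 0.0213). The Hey1 call in H1093K minus WT (-0.91) was kept in 0 of the 4 fits without 1 of the compared arrays. For Id1, whose values stand above, it was -1.36 (limma adjusted p = 0.0120), and its call in H1093K minus WT was kept in all 4. Nrp1, a co-receptor for semaphorins and VEGF, read 2381 and 2338 in WT, 3151 and 3052 in H1093K, 2311 and 2205 in delta and 2730 and 2784 in K165A. H1093K was high beside WT and delta low beside K165A, with a difference of differences of 0.68 (limma adjusted p = 0.0340). Another Nrp1 probe set was called in the same directions, but its difference of differences, 0.65, did not pass (limma adjusted p = 0.0701). On the brightest probe set, the Nrp1 call in H1093K minus WT was not kept in every fit without 1 of the compared arrays. Cotl1, an actin-binding protein, read 319 and 332 in WT, 92.2 and 167 in H1093K, 274 and 310 in delta and 93.6 and 140 in K165A on that probe set, with a difference of differences of -2.52 (limma adjusted p = 0.0213). Its call in H1093K minus WT (-1.28) was kept in 1 of the 4 fits without 1 array.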

How the results depend on the processing

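No probe set called in H1093K minus WT changed sign under any alternative run. Of the 110 named genes that were called, 89 kept the call whichever of the 4 compared arrays was left out. The count of 1090 fell to between 548 and 644 without 1 of those arrays; over all 10 single-array omissions it ran from 548 to 1034 (263 to 525 higher, 285 to 516 lower). Only 2 replicate numbers exist, too few to show pairing; same-numbered arrays deviated together (correlations 0.234 to 0.527). With the replicate block the count was 1946 (993 higher, 953 lower), with the block and only the 4 arrays 1893 (1015 and 878), and for delta minus K165A 2678. That comparison, with 1529 calls, gave 805 with only the arrays compared and 823 to 928 without 1 of its arrays (823 to 1351 over all 10). Ehmt2 ran from -0.49 to -0.37 over single-array omissions and missed the threshold without the array WT replicate 1 (-0.37, limma adjusted p = 0.144) and without either H1093K array (-0.38 and -0.48, adjusted p = 0.132 and 0.0524). Among named genes that did not pass, the sign turned for Laptm5 (-1.03 to 0.03, the latter without H1093K replicate 1), Csf1r (-0.35 to 0.15, with 0.09 without WT replicate 1, 0.15 without H1093K replicate 2), Plvap (0.52 to -0.31, the latter without H1093K replicate 1) and Egfl7 (-0.36 to 0.33, with 0.02 with quantile normalization, 0.08 without WT replicate 2, 0.33 without H1093K replicate 2). List medians changed sign for extracellular matrix genes (0.02 with quantile normalization), imprinted genes (0.04 without H1093K replicate 1), smooth muscle genes (-0.04 without WT replicate 2), p53 targets (-0.03 without WT replicate 1) and cell cycle genes (0.02 with quantile normalization). The cause of these changes was not tested. Named genes too dim for the filter at the 60th percentile have no value under it.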
